A study of Mus musculus with 9 samples.

Results

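Semaphorins, plexins and neuropilins form a guidance system whose ligands, the semaphorins, steer growing axons, prune them and shape synapses. Class 3 semaphorins are secreted and most of them act through a neuropilin, which binds the ligand, joined to a plexin of the A type, which signals into the cell. Semaphorins of classes 4 to 7 are held in the membrane and bind plexins directly, and Sema3e is the secreted exception that binds Plxnd1 without a neuropilin. Motor neurons both make these ligands, Sema3a among them, and carry the receptors that read them.

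The genes described here are all those on the array whose symbol starts with Sema3 to Sema7, Plxn or Plxdc, or is Nrp1 or Nrp2, 34 of the 18193 genes measured. They comprise 20 semaphorins, 9 plexins, 2 neuropilins, 2 plexin domain containing genes (Plxdc1 and Plxdc2) and Plxna4os1, named for a transcript opposite Plxna4. Plxdc proteins are membrane proteins first known from tumour vessels and are not semaphorin receptors of the plexin kind. The 34 genes were measured by 84 probe sets, and each gene is given by its brightest probe set, judged by the mean of the 9 arrays.

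The study profiled motor neurons cut by laser from frozen sections of wild-type male C57BL/6J mice at postnatal day 7, untreated in every group. L5 denotes motor neurons at the fifth lumbar level, OMN those of the oculomotor nucleus in the midbrain and DL those of the dorsolateral nucleus, found at L6. The title sets these pools against each other for their differing vulnerability in amyotrophic lateral sclerosis. Each pool had 3 arrays from 3 animals, with about 200 neurons per pool and animal recognised on cresyl violet stain.

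Promoter letters are shown for the 3 genes called lower in L5 than in OMN by the test given below, Sema3e, Sema3d and Plxna2. The shared direction is that of this comparison, and of them only Sema3e was also called lower in L5 than in DL. Each line holds the 250 bases before the RefSeq start, on the plus strand of GRCm38.p6, written 5′ to 3′. Capitals mark TAAT or its reverse complement ATTA, the core that many homeodomain proteins bind, and overlapping matches run together.
Sema3e, chr5:14025026-14025275: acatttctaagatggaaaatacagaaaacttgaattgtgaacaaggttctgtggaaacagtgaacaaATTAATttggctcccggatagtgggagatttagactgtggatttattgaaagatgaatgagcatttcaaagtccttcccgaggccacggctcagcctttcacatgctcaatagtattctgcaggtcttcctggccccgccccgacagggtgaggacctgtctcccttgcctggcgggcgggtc
Sema3d, chr5:12382916-12383165: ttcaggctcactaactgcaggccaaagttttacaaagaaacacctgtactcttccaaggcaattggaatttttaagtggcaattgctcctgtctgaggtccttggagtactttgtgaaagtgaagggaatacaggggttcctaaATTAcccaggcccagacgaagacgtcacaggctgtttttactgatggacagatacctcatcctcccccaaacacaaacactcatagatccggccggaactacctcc
Plxna2, chr1:194619579-194619828: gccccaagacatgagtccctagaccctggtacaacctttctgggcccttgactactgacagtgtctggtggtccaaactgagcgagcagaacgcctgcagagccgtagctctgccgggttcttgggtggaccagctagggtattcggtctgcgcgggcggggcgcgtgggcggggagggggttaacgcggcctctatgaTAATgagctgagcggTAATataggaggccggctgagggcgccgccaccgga

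The window of Sema3e held 1 TAAT and 1 overlapping ATTA, that of Sema3d 1 ATTA, and that of Plxna2 2 TAAT. The core is common: 54.9% of all 32851 windows of this length held it on either strand, as did 14 of the 37 windows of the 26 members with an entry. By base composition the windows differed, with 62.8% G or C for Plxna2, 48.0% for Sema3e and 46.8% for Sema3d, against a median of 52.4% over all windows. A match describes these letters and is no evidence of binding.

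Values are intensities in the array's linear units. The noise level was set at 18.3, the highest value of 27 probe sets for bacterial transcripts that were not added. Of the 34 genes, 27 (79.4%) exceeded it on all 9 arrays, compared with 56.6% of all genes, and only Plxna4os1 stayed at or below it on every array. Between 29 and 33 of them exceeded it on a given array. Arrays were alike in scale, and DL stood somewhat apart in RNA quality. Gapdh control probe sets gave a 3'/5' ratio of 2.44 to 3.75 on DL arrays, highest on 1 and 3, and of 2.33 to 2.67 on the others.

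Motor neuron identity was checked on 9 measured markers. Their summed intensity spanned 29847 to 32234 on L5 arrays, 21695 to 23541 on OMN arrays and 22895 to 26742 on DL arrays. The cholinergic genes Slc18a3 (vesicular transporter) and Slc5a7 (choline transporter) had pool means of 1662 to 2828 and 3230 to 4107. Chat, the enzyme that makes acetylcholine, had a pool mean of 6.1 to 22.3 by its only probe set and did not exceed the noise level on any L5 array. Mnx1, a factor of spinal motor neurons, did not exceed it on any OMN array. Isl1, another motor neuron factor, went against the sum, with means of 598 for L5, 2129 for OMN and 2717 for DL, and was called lower in L5 than in OMN (limma adjusted p = 0.0122) and than in DL (0.00770). Glial transcripts were present in all pools, astrocyte markers summing to 18257 or more on every array.

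Across the 3 pools, 7 of the 34 genes differed in at least 1 pairwise comparison, against a background of 5.28% of all genes. A gene is called where limma's adjusted p, over all 18193 genes, is under 0.05, and differences are of log2(intensity + 16) with the standard error (SE) of the fit. L5 and OMN were told apart by Sema3e, Sema3d and Plxna2, all lower in L5. L5 and DL were told apart by Sema3e and Sema4c, both lower in L5, and by Plxna4, higher in L5. DL and OMN were told apart by Plxna2, Nrp1 and Sema6d, all lower in DL. The 3 comparisons share pools, so their lists are not independent.

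That made 3 called genes of 34 in each comparison, with backgrounds of 2.17% for L5 against OMN (0.945% higher, 1.22% lower), 2.55% for L5 against DL (1.28% higher, 1.28% lower) and 3.02% for DL against OMN (1.37% higher, 1.65% lower). Over the 3 pools at once, the F test called 6 members where the background was 4.51%. Among the 33 members above noise on some array, the highest pool mean lay in L5 for 9, in OMN for 11 and in DL for 13. The backgrounds of these were 37.2%, 31.6% and 31.3%. The median log2 difference of the 34 was -0.21 for L5 against OMN, where that of all genes was 0.015. For L5 against DL it was -0.033 (all genes 0.065), and for DL against OMN 0.016 (all genes -0.036).

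**Figure D1:**
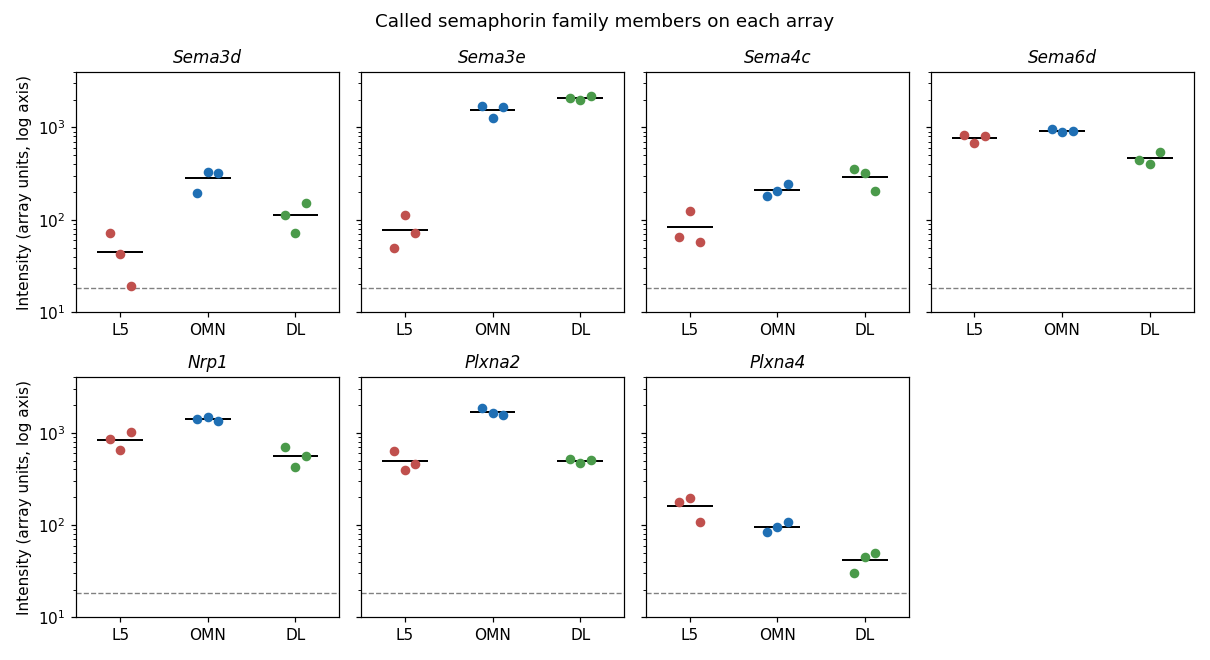
Intensity (array units, log axis) of the 7 called genes on each of the 9 arrays, grouped by pool; each point is 1 array, bars are the mean of 3 arrays and the dashed line is the noise level of 18.3. Sema3e lies between 49.7 and 111.6 in L5 and at 1269.1 or more on every OMN and DL array, and Plxna2 reaches 1571.7 or more only in OMN.

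Sema3e, the secreted ligand of Plxnd1, separated L5 from both other pools. Its intensity was 49.7, 111.6 and 72.4 on the L5 arrays, 1692.7, 1269.1 and 1668.3 on the OMN arrays and 2073.4, 1989.4 and 2182.6 on the DL arrays. L5 lay far below every array of the other pools, and DL lay above OMN without overlap. The mean in L5, 77.9 ± 31.3 (SD, n = 3), was 19.8-fold below OMN and 26.7-fold below DL. The log2 difference was -4.10 ± 0.28 (SE) for L5 against OMN (limma adjusted p = 0.000869) and -4.53 ± 0.28 for L5 against DL (adjusted p = 0.00307). For DL against OMN it was 0.44 ± 0.28 and did not pass (adjusted p = 0.515). In such bulk samples fewer cells that make a transcript and less of it per cell cannot be told apart.

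All 4 probe sets of Sema3e gave the same call. Each was called lower in L5 than in OMN, with log2 differences from -4.15 to -3.11, and lower in L5 than in DL, from -4.53 to -2.59. Backgrounds over all 34945 probe sets fitted singly were 1.51% and 1.79%. Leaving out any 1 of the 9 arrays kept both calls, with adjusted p of at most 0.0166 and 0.0238. Without DL arrays 1 and 3 the call against DL was lost (adjusted p = 0.0705), at a log2 difference of -4.36.

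Markers of other cells also differed between these pools. Of the inhibitory interneuron markers, Gad1 and Gad2, which make GABA, had the same order as Sema3e, Gad2 with means of 269, 1312 and 2340 and Gad1 of 101, 396 and 429 for L5, OMN and DL. Slc6a5, the glycine transporter, and Slc32a1, the vesicular transporter of both transmitters, were instead lowest in OMN, with means of 551, 22.6 and 707 and of 963, 475 and 1882. Slc6a5 was called higher in L5 than in OMN (adjusted p = 0.00184), and 2 of the 6 measured markers of this list were called lower. For L5 against DL 2 of the 6 were called, both lower in L5. For DL against OMN 2 were called, both higher in DL. Backgrounds of calls were 2.17%, 2.55% and 3.02% in the 3 comparisons. The 6 measured inhibitory interneuron markers together reached 1642 to 2284 on L5 arrays, 1928 to 2724 on OMN arrays and 5036 to 5922 on DL arrays, so that L5 and OMN overlapped. Endothelial markers, 10 of 10 measured, summed to 771 to 1147 on L5 arrays, 1307 to 1500 on OMN arrays and 1533 to 1933 on DL arrays. The motor neuron factor Isl1, given above, also had the order of Sema3e. The part of these genes in the Sema3e difference was not tested.

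Sema3d, a secreted ligand known to bind Nrp1, was lower in L5 than in OMN. It read 72.3, 42.5 and 19.0 in L5, 197.1, 326.4 and 319.2 in OMN and 112.9, 71.9 and 151.6 in DL. OMN lay above all other arrays, while the highest L5 array, at 72.3, just passed the lowest DL array. L5 against OMN gave a log2 difference of -2.36 ± 0.42 (adjusted p = 0.0385), and its second probe set was called as well, at -2.44. The comparisons of DL with L5 and with OMN did not pass (adjusted p = 0.205 and 0.202). The call was lost, with adjusted p of 0.0655 to 0.177, on leaving out any 1 of the L5 or OMN arrays or DL array 1. It was also lost with a pseudocount of 1 and in a fit of the L5 and OMN arrays alone.

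On mouse chromosome 5, Sema3d and Sema3a are neighbours with 0 protein-coding genes between them, and Sema3e follows Sema3a after 3. Sema3a, the classic repellent that acts through Nrp1, did not share the pattern of its neighbours. It read 3959.9, 3213.6 and 2799.7 in L5, 2188.7, 2128.5 and 2072.7 in OMN and 2927.6, 2887.9 and 3087.3 in DL, lowest in OMN, and passed in no comparison (adjusted p = 0.178 for L5 against OMN). Sema3c, which lies 15 protein-coding genes past Sema3e and acts through both neuropilins, had pool means of 657 to 1064 with no call. DL array 3 gave 477.3 for Sema3c where DL arrays 1 and 2 gave 1393.4 and 1171.4.

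The other secreted ligands were dim. Sema3b had pool means of 33.3 to 48.9 and Sema3f, which acts through Nrp2, of 6.3 to 18.8, above noise on 6 and 2 of 9 arrays. Sema3g, known from arterial endothelium, read 28.9, 122.2 and 164.0 in OMN and at most 36.7 elsewhere, and did not pass (adjusted p = 0.128 for L5 against OMN and 0.108 for DL against OMN). Of the 10 endothelial markers, 5 (Pecam1, Tie1, Flt1, Kdr and Esam) had their highest mean in OMN, as Sema3g did, and the other 5, Cldn5 among them, in DL. None of the 10 was called by limma in any comparison, and their part in the Sema3g values was not tested.

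**Figure D2:**
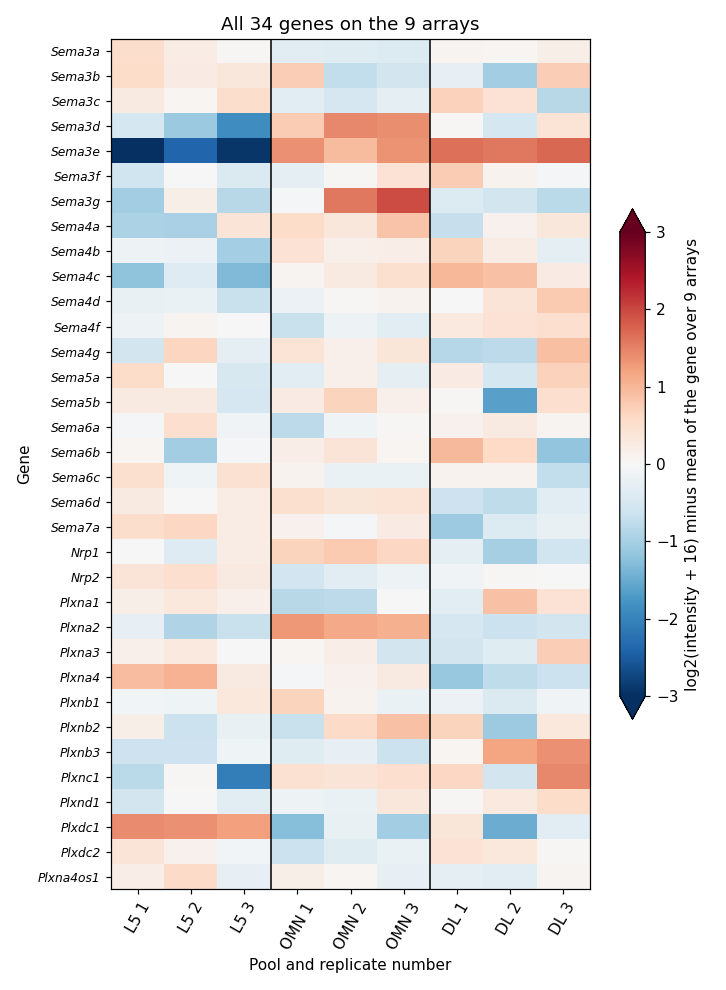
Each of the 34 genes (rows, by role) on the 9 arrays (columns, by pool and replicate number), as log2(intensity + 16) minus the mean of the gene over the 9 arrays; blue is below and red above that mean, and the scale ends at -3 and 3. Sema3e on L5 array 1, at -3.34, is the lowest cell, and most other rows stay pale.

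Among the 6 membrane semaphorins of class 4, Sema4c was called. Sema4c, a ligand of Plxnb2, read 64.7, 126.0 and 57.9 in L5, 180.6, 206.6 and 241.2 in OMN and 351.6, 323.6 and 205.5 in DL. Every L5 array was below every array of the other pools, and OMN and DL overlapped. The log2 difference was -1.68 ± 0.29 for L5 against DL (adjusted p = 0.0337). For L5 against OMN it was -1.24 ± 0.29, which did not pass (adjusted p = 0.0903). Leaving out any 1 array other than OMN 3 ended the call (adjusted p = 0.0585 to 0.146), as did array weights (0.0537). The Gapdh ratio as a covariate (0.132), a fit of the L5 and DL arrays alone (0.104) and a pseudocount of 1 ended it too.

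For the remaining class 4 genes the pool means ran from 294 to 513 for Sema4d, 370 to 461 for Sema4g, 128 to 214 for Sema4b and 52.4 to 118 for Sema4a. Sema4f, found at synapses, read 1809.3, 2127.5 and 2040.4 in L5, 1262.6, 1798.1 and 1592.4 in OMN and 2448.2, 2719.0 and 2844.0 in DL. All pairs of pools separated without overlap, and none passed (0.79 ± 0.18 for DL against OMN, adjusted p = 0.0710). Sema4d, the ligand of Plxnb1, is also known from oligodendrocytes. Its L5 arrays, 232.4 to 326.8, lay below those of OMN, 336.3 to 411.0, and of DL, 373.8 to 664.4, and it passed in no comparison (adjusted p = 0.182 for L5 against DL). The other probe sets of Sema4d put L5 above OMN, with means of 48.1 against 26.2 and of 75.0 against 41.3, and were not called. The 10 measured oligodendrocyte markers summed to 16299 to 17513 on L5 arrays, 12878 to 14669 on OMN arrays and 24278 to 26459 on DL arrays. Of them Cldn11, Ermn, Ugt8a and Mal were called higher in DL than in either other pool. Their part in the DL values of Sema4c and Sema4d was not tested.

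Sema6d, a membrane ligand of Plxna1, was lower in DL than in OMN. It read 445.6, 403.4 and 539.5 in DL, 964.3, 895.5 and 921.0 in OMN and 835.6, 680.9 and 804.8 in L5. DL lay below all L5 arrays and L5 below all OMN arrays. The difference between DL and OMN was -0.99 ± 0.18 on the log2 scale (adjusted p = 0.0367), and a second of its 4 probe sets was called, at -1.65. L5 against DL did not pass (0.73 ± 0.18, adjusted p = 0.0909). The call was lost on leaving out any 1 of the 9 arrays (adjusted p = 0.0681 to 0.166) and when arrays were centred on their medians (0.0712).

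The other class 6 genes were not called. Sema6a, a ligand of Plxna2 and Plxna4 also made by oligodendrocytes, had pool means of 327 to 441, Sema6b of 114 to 187 and Sema6c of 17.8 to 29.4. The other probe sets of Sema6a had their highest mean in DL and were not called. Their means were 191, 291 and 475, and 274, 261 and 496, for L5, OMN and DL. The part of the oligodendrocyte markers in them was not tested. In class 5, whose members carry thrombospondin repeats, Sema5a had pool means of 177 to 233. Sema5b read 787.2, 239.6 and 1101.0 on DL arrays and 921.3, 1249.0 and 862.8 on OMN arrays, and DL minus OMN was -0.73 ± 0.53 (adjusted p = 0.584). DL array 2 alone was low, and without it the difference was 0.045. With the Gapdh ratio as a covariate Sema5b was called, at -1.93 (adjusted p = 0.0319).

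Sema7a, the lipid-anchored ligand of Plxnc1 and of integrins, read 2542.9, 2703.6 and 2046.8 in L5, 1918.4, 1676.2 and 2092.9 in OMN and 812.6, 1321.7 and 1490.2 in DL. All DL arrays lay below the others. The difference between L5 and DL, 1.03 ± 0.27, did not pass with the probe set of highest mean (adjusted p = 0.0963). With the other probe set of Sema7a, with means of 622 ± 107 for L5 and 123 ± 64.4 for DL (SD, n = 3), it was 2.29 and was called (adjusted p = 0.0250 over all probe sets). The mean of both probe sets was called too (1.66, adjusted p = 0.0147).

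**Figure D3:**
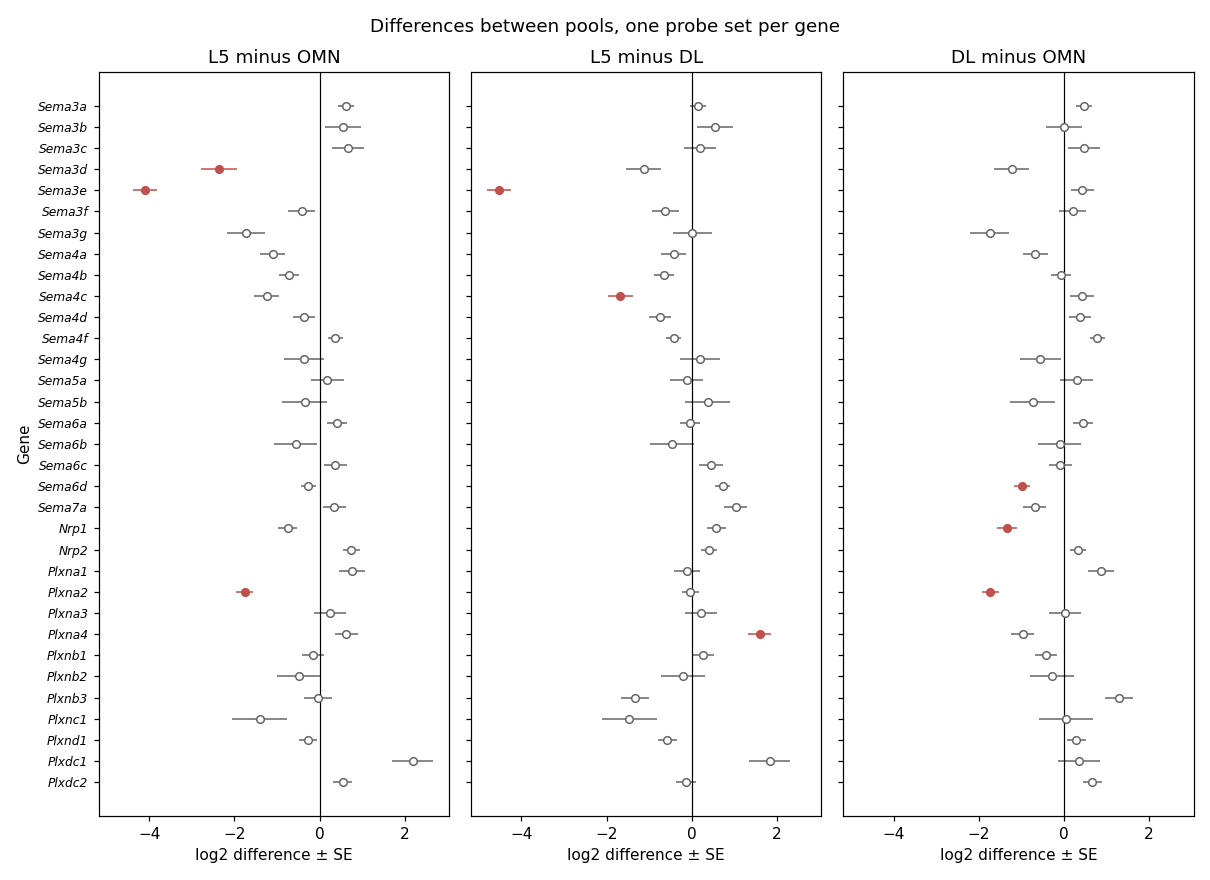
Log2 difference with its SE for 33 genes (rows, without Plxna4os1) in the 3 comparisons, from 1 limma fit to the 9 arrays; filled red points are called and open grey points are not. Sema3e stands far to the left in both comparisons of L5, at -4.10 and -4.53, and near 0.44 for DL minus OMN.

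Plxna2, the plexin receptor for class 3 semaphorins with neuropilins and for Sema6a directly, separated OMN from both spinal pools. It read 1839.5, 1648.4 and 1571.7 in OMN, 628.9, 392.9 and 463.6 in L5 and 516.2, 472.5 and 501.9 in DL. OMN lay above all spinal arrays, and L5 and DL overlapped. The log2 difference was -1.76 ± 0.19 for L5 against OMN (adjusted p = 0.00731) and -1.73 ± 0.19 for DL against OMN (adjusted p = 0.00558). For L5 against DL it was -0.03 ± 0.19 (adjusted p = 0.961).

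All 4 probe sets of Plxna2 were called lower in DL than in OMN, from -2.32 to -1.73, and 3 of them lower in L5 than in OMN. For L5 against DL the other 3 probe sets lay at 0.60 to 0.96, with L5 above, and were not called. The probe set at 0.96 read 154.7 to 219.7 on L5 arrays and 79.8 to 94.3 on DL arrays (limma adjusted p = 0.0587 over all probe sets). The background over single probe sets for DL against OMN was 2.46%. The call against DL held without any 1 array (adjusted p of at most 0.0421) but not in a fit of the DL and OMN arrays alone (0.0525) or without DL arrays 1 and 3 (0.0934). The call against L5 was lost, at adjusted p of 0.0502 to 0.0596, without L5 array 2 or 3 or any 1 OMN array. The 6 oligodendrocyte precursor markers summed to 4604 to 4875 on OMN arrays, 3073 to 3541 on L5 arrays and 2360 to 3183 on DL arrays. Most of that gap was Ptprz1, with means of 603, 1988 and 686 for L5, OMN and DL, called higher in OMN than in either spinal pool. Olig1 (1537, 1803 and 1195) and Olig2 (191, 238 and 97.9) were also highest in OMN. Pdgfra (352, 263 and 320), Cspg4 (335, 205 and 215) and Gpr17 (280, 246 and 334) were lowest in OMN. Of these precursor markers only Ptprz1 was called. Their part in the Plxna2 values was not tested.

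Nrp1, the binding partner of Sema3a in the receptor, was lower in DL than in OMN. Its arrays read 699.4, 422.6 and 561.9 in DL, 1394.5, 1491.3 and 1346.2 in OMN and 864.7, 652.4 and 1015.0 in L5. OMN lay above all others, and L5 and DL overlapped. The log2 difference between DL and OMN was -1.33 ± 0.23 (adjusted p = 0.0297), and 3 of the 4 probe sets were called, the exception lying near the noise level. L5 against OMN did not pass (-0.75 ± 0.23, adjusted p = 0.175). Leaving out any 1 of the 9 arrays ended the call for DL against OMN (adjusted p = 0.0507 to 0.121). So did a pseudocount of 1, the Gapdh ratio as a covariate and a fit of the DL and OMN arrays alone.

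Nrp2, the neuropilin for Sema3f and Sema3c, was called in no comparison. It read 3138.2, 3436.1 and 2928.1 in L5, 1606.5, 1889.0 and 2162.9 in OMN and 2244.4, 2483.2 and 2379.2 in DL, with no overlap between any pair of pools (adjusted p = 0.116 for L5 against OMN). Its probe sets disagreed. One of them put L5 at 755 ± 62.2 and OMN at 1115 ± 124, the opposite order, while another put L5 at 1955 ± 298 and OMN at 954 ± 136 (SD, n = 3).

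Plxna4, a receptor for Sema3a and Sema6a, was higher in L5 than in DL. It read 179.1, 197.1 and 107.3 in L5, 30.5, 44.6 and 49.7 in DL and 83.2, 96.3 and 108.0 in OMN. DL lay below all other arrays, and L5 and OMN overlapped. The log2 difference for L5 against DL was 1.60 ± 0.27 (adjusted p = 0.0311), with the other probe set at 1.38 and not called. Omitting any 1 array other than L5 array 3 ended the call (adjusted p = 0.0539 to 0.150). So did a pseudocount of 1, the Gapdh ratio as a covariate and a fit of the L5 and DL arrays alone.

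**Figure D4:**
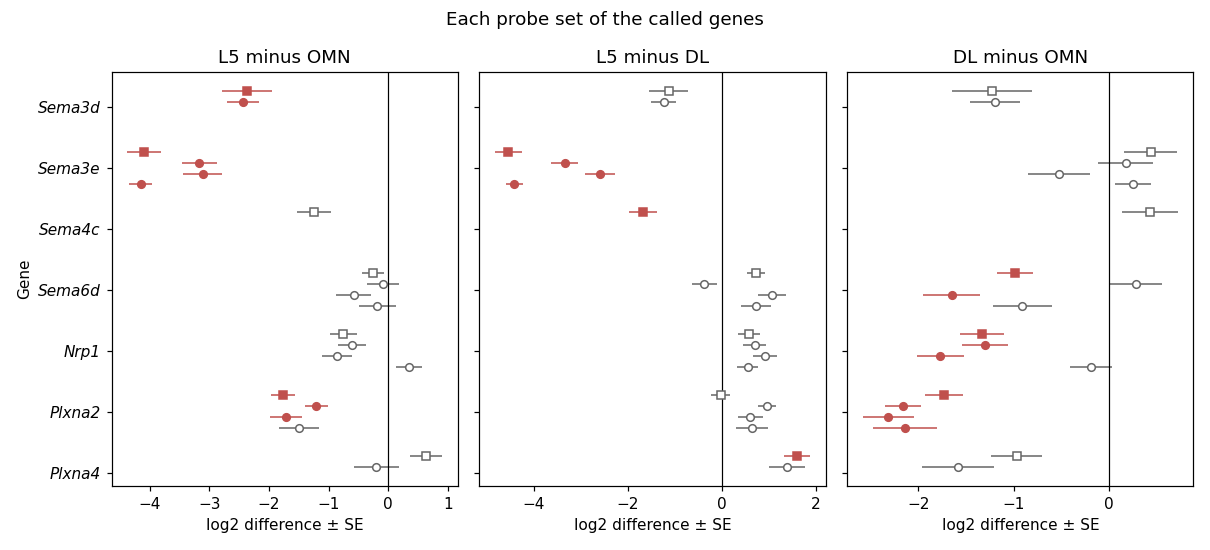
Log2 difference with its SE for every probe set of the 7 called genes in the 3 comparisons, each probe set fitted on its own; squares are the probe sets with the highest mean, circles the others, and filled red symbols are called. The 4 symbols of Sema3e are filled in both comparisons of L5, and the 4 of Plxna2 in DL minus OMN.

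The remaining plexins were not called. Plxna1, a receptor for Sema3a with Nrp1 and for Sema6d, read 1433.2, 1586.7 and 1418.0 in L5, 702.4, 734.1 and 1271.8 in OMN and 1017.3, 2358.7 and 1718.4 in DL, a wide spread in DL. Plxna3, the partner of Nrp2 in responses to Sema3f, had pool means of 75.1 to 89.8. Plxnb1, the Sema4d receptor, had pool means of 140 to 198 and Plxnb2 of 35.6 to 61.8. Plxnb3, a receptor of Sema5a known from oligodendrocytes, read 59.0, 147.2 and 169.9 in DL, 30.4, 30.7 and 50.1 in L5 and 39.5, 44.7 and 29.7 in OMN, so that all DL arrays were highest. It did not pass (-1.33 ± 0.32 for L5 against DL, adjusted p = 0.0824), and the part in it of the oligodendrocyte markers, whose sum was also highest in DL, was not tested. The other probe set of Plxnb3 had means of 45.8, 22.0 and 52.4 for L5, OMN and DL. There L5 and DL overlapped, at a log2 difference of -0.08, and no comparison was called.

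Plxnc1, the receptor of Sema7a, read 54.9, 111.2 and 13.6 in L5, 157.0, 148.4 and 160.1 in OMN and 177.6, 70.1 and 321.2 in DL. L5 against DL gave -1.47 ± 0.64 (adjusted p = 0.276), with overlap. L5 lay below OMN without overlap and did not pass (-1.41 ± 0.64, adjusted p = 0.339). Of the 6 probe sets of Plxnc1, 1 was called lower in L5 than in OMN (-2.25, adjusted p = 0.0259 over all probe sets), and so was the mean of all its probe sets. Plxnd1, the receptor of Sema3e, was dim in all pools, at 22.5, 40.6 and 29.4 in L5, 34.7, 32.7 and 54.6 in OMN and 41.4, 52.9 and 65.8 in DL. L5 lay below DL without overlap but did not pass (-0.57 ± 0.22, adjusted p = 0.216), so its ligand differed far beyond the spread of the arrays while the receptor gave no call.

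Plxdc1 read 421.2, 404.4 and 363.4 in L5, 50.8, 122.9 and 63.4 in OMN and 193.3, 41.7 and 112.6 in DL, and L5 lay above both without overlap. The log2 difference of 2.19 ± 0.49 for L5 against OMN did not pass (adjusted p = 0.0817), nor did that against DL (1.83 ± 0.49, adjusted p = 0.103). For L5 against OMN, Plxdc1 was called in 8 of 22 alternatives, among them no replicate block (adjusted p = 0.0322), array weights (0.0347) and leaving out DL array 2 (0.0228), and adjusted p over the 22 ran from 0.0139 to 0.271. Endothelial markers summed lowest in L5. The 10 mural cell and fibroblast markers together were highest in DL. They summed to 2641 to 3335 on L5 arrays, 2533 to 3240 on OMN arrays and 3524 to 4530 on DL arrays. Within that list, the fibroblast genes Col1a2 (472, 120 and 321 for L5, OMN and DL) and Dcn (86.7, 6.2 and 39.0) were instead highest in L5, as Plxdc1 was. Dcn was called higher in L5 than in OMN. The 3 measured Schwann cell and dorsal root ganglion markers also had the order of Plxdc1. They summed to 1902 to 2248 on L5 arrays, 129 to 204 on OMN arrays and 747 to 1126 on DL arrays. The part of all these markers in the Plxdc1 values was not tested. Plxdc2 had pool means of 354 to 571 with no call.

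Groups of 3 arrays often separate without passing the test. For L5 against OMN 17 of the 34 genes did not overlap (background 27.4%), 7 with L5 above (14.6%) and 10 with L5 below (12.8%). For L5 against DL these were 11 (23.5%), 5 above (13.8%) and 6 below (9.67%). For DL against OMN they were 15 (21.1%), 7 with DL above (9.51%) and 8 below (11.6%). An unadjusted p under 0.05 was reached by 14, 13 and 12 members in the same order, with backgrounds of 15.9%, 18.9% and 16%. Members with a mean over 200, 16 in number, had a median SD of log2 values of 0.26 in L5, 0.19 in OMN and 0.28 in DL. Over all 7123 genes with such a mean it was 0.20, 0.17 and 0.29.

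Other genes of semaphorin signalling were followed through a list of 47, of which 45 were measured. Backgrounds of calls were 2.17%, 2.55% and 3.02% for L5 against OMN, L5 against DL and DL against OMN. An unadjusted p under 0.05 was reached by 7, 11 and 5 of the 45, with backgrounds of 15.9%, 18.9% and 16%. For L5 against OMN limma called 0 of them. For L5 against DL it called 1, Rap1b, a small GTPase on which plexins act, at 1485 ± 121 in L5 and 3256 ± 360 in DL (SD, n = 3; log2 difference -1.12, adjusted p = 0.0475). For DL against OMN it called 1, Cntn2, the adhesion molecule TAG-1 that takes part in Sema3a responses, at 123 ± 77.7 in DL and 551 ± 66.0 in OMN (-2.15, adjusted p = 0.0151). The median log2 difference of the 45 was 0.0012, -0.13 and -0.0023 in the 3 comparisons.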

How the data were processed

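The authors deposited 1 table of intensity values for 45101 probe sets on 9 Affymetrix Mouse Genome 430 2.0 arrays, 3 per pool. Per the labels' protocols, at least 1.5 ng of RNA was amplified. The deposited intensities are linear, and the mean of each array after trimming 2% at each end was 250.0, so the arrays share a scale. No source used here names the software. Scaled arrays hold no total RNA per cell, and their number limits the precision. Control probe sets (64) were left out, 34945 probe sets named 1 gene, and each gene took its probe set with the highest mean.

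Log2(intensity + 16) of all 18193 genes was fitted with limma 3.58.1 in R 4.3.3, with pool and replicate number as terms and Benjamini-Hochberg adjustment. The number is a block because the protocol took all pools from each animal, although no label says that equal numbers are 1 animal. Scripts were tested on simulated arrays. Genes named are the called members with every array, the member of smallest p in each class without a call, and up to 4 called partners per comparison. All other members are given by their pool means, and some of them array by array, chosen after their values were seen. Members and lists were chosen with earlier results of these data known. Alternatives were another pseudocount, scaling, filter, probe set rule, variance model, array weights, the Gapdh ratio as a covariate, no block, 2 pools only and each array left out. Promoters are RefSeq's.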

Additional observations from a re-analysis of the deposited data

How the results depend on the processing

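The number of called members, 3 for each pair of pools and 6 across the 3, rested on few arrays. Leaving out 1 array gave 1 to 4 for L5 against OMN, 1 to 2 for L5 against DL, 1 for DL against OMN and 2 to 3 across the pools. Sema3e (both L5 comparisons) and Plxna2 (DL against OMN) kept their calls in each of these. With a pseudocount of 1 the counts were 1 for L5 against DL, 1 for DL against OMN and 2 across pools. With trend and robust variances they were 6 for L5 against OMN, 6 for L5 against DL and 13 across pools, and the mean of all probe sets gave 5 for L5 against OMN. Counts under the alternatives are of members alone. Without the calls among all genes beside them, they show nothing particular to the members. The Gapdh ratio as a covariate left 1 for L5 against DL, Sema3e, and Plxna2 and Sema5b for DL against OMN. Fitting only the 2 pools compared left 1 for L5 against DL and 0 for DL against OMN, where limma called 120 of all genes and 11 members had an unadjusted p under 0.05. Without DL arrays 1 and 3, an alternative chosen after seeing the data in which the lone DL array is assumed to vary like the other pools, limma called 0 for L5 against DL (7 at an unadjusted p under 0.05), 0 for DL against OMN (11) and 3 across pools. Centring on array medians moved each DL minus OMN difference by 0.15 on the log2 scale. This centring, quantile normalization, the filter on dim genes and array weights kept each count within 1.5 times. With no replicate block the counts were 4, 3, 3 and 8. Same-numbered arrays did not deviate together (correlations from -0.071 to 0.059), so the numbers are not shown to pair them. Directions were followed for the called comparisons and for the member of smallest p in each class without a call. Among these they turned only for uncalled genes. Sema5b turned for DL against OMN without DL replicate 2 (0.045, the range with 1 array left out being -1.34 to 0.045). Plxnc1 turned for L5 against DL without DL arrays 1 and 3 (0.043). The cause of these changes was not tested. With 3 arrays a pool and dim probe sets such as Plxnd1 and Sema3f, a missed call is no sign of equal levels.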
